A study of Mus musculus with 12 samples.

Results

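The 10 genes described here make palmitate in the cytosol and supply the NADPH that its synthesis consumes. They are SLC25A1, ACLY and ACSS2, which supply acetyl-CoA, the acetyl-CoA carboxylases ACACA and ACACB, the fatty acid synthase FASN, the NADPH-making enzymes ME1, G6PDX and PGD, and THRSP, a small protein linked to lipogenesis. They were chosen by gene symbol, and all 10 were found among the 56441 genes of the count table. The data are RNA sequencing libraries of mouse liver, 12 in number, in 4 groups of 3. Ob/ob mice, which lack functional leptin and become obese, were kept on a high-fat diet and had received AAV8 with fumarate hydratase (ob/ob FH) or the AAV8 vector alone (ob/ob vector). C57BL/6 mice were fasted for 24 h before collection and had received AAV8 with FH (fasted FH) or the vector alone (fasted vector). All mice were injected in the tail vein at 6 to 8 weeks of age, and the livers were taken 1 month later. The study describes the virus as specific to the liver. The sources used here give neither its promoter nor the species of the FH sequence, nor the feeding state of the ob/ob mice at collection, so genotype, diet and fasting cannot be told apart between the 2 models. Whether each library is a separate mouse is not stated, so the p-values measure library-to-library spread, which may be technical.

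Total counts were 21632289 to 23506015 in ob/ob FH, 12573267 to 14496559 in ob/ob vector, 19107050 to 25873379 in fasted FH and 12231828 to 14884323 in fasted vector libraries. FH1, the mouse gene of fumarate hydratase, averaged 679 ± 106 CPM (TMM-scaled counts per 1e6; SD, n = 3) in ob/ob FH and 122 ± 17.9 CPM in ob/ob vector livers, and 812 ± 104 CPM in fasted FH and 319 ± 85.4 CPM in fasted vector livers. The make-up of the libraries differed between FH and vector libraries in both models. Genes detected numbered 18414 to 19922 in the FH and 20312 to 21629 in the vector libraries. Whether FH and vector livers were handled and prepared alike was not tested. Preparation and FH therefore cannot be told apart, and an FH effect below means FH libraries against vector libraries. ALB alone took 7.90% to 11.1% of the counts in the 6 FH libraries and 3.70% to 5.57% in the 6 vector libraries, and the nuclear RNA MALAT1 lay at 12.7 to 80.9 CPM in FH and 358 to 558 CPM in vector libraries. XIST had 2242 to 4992 counts and 4 Y-linked genes had 0 counts in each of the 3 ob/ob FH libraries, while the other 9 held 1 to 24 counts of XIST and 2304 to 5181 counts of the Y-linked genes, so the sex markers and FH cannot be told apart in the ob/ob FH comparison or in the difference between the models, nor sex markers and model between ob/ob FH and fasted FH livers. Replicate 2 of the ob/ob vector group was unlike the other two, with HSD3B5 at 334 CPM against 0.0580 and 0 CPM in replicates 1 and 3, and DBP at 0.420 CPM against 35.7 and 36.7 CPM. DBP, a gene driven by the circadian clock, also differed in the fasted livers, with 45.8 to 63.2 CPM in FH and 2.39 to 5.81 CPM in vector libraries. Whether these livers were taken at the same hour was not tested, so hour and FH cannot be told apart in the fasted comparison. The labels call the samples both liver and primary hepatocytes. All 8 hepatocyte markers were detected, and markers of Kupffer cells (274 to 442 CPM in sum in the ob/ob vector libraries) and endothelium (203 to 263 CPM) were present as well.

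Palmitate is built from acetyl-CoA that leaves the mitochondria as citrate. The citrate carrier SLC25A1 exports it and ACLY splits it into acetyl-CoA and oxaloacetate, while ACSS2 makes acetyl-CoA from acetate. The carboxylases turn acetyl-CoA into malonyl-CoA, and FASN joins malonyl-CoA units into palmitate with NADPH as the reductant. ME1 makes NADPH from malate, and G6PDX and PGD make it in the oxidative steps of the pentose phosphate pathway. In liver the transcription factors SREBP-1c (gene SREBF1) and ChREBP (gene MLXIPL) are known to raise these genes after feeding, with insulin and with carbohydrate, and fasting lowers them.

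Promoter windows of 300 bases (250 before and 50 after the start) were taken from RefSeq on GRCm38.p6 for all 10 genes, which had 12 windows in all. The CCAAT box, the letters CCAAT read on both strands, is the site of NF-Y, a factor known to act beside SREBP at lipogenic promoters. It occurred in 8 of the 12 windows, from 8 of the 10 genes, and in 37.4% of all 32851 windows. ACACA and G6PDX had no match. The letters TCACNCCAC, a core SREBP site, occurred in no window of the 10 genes and in 1.24% of all windows. GGGCGG occurred in 6 of the 12 windows, from 6 of the 10 genes, and in 35.7% of all windows. CACGTG occurred in 1 window, of SLC25A1, and in 7.15% of all windows. TATAAA occurred in 1 window, of ACACB, and in 13.6% of all windows. Each motif was searched on both strands and none of these motifs contains another. The 130 bases before the start are shown for FASN and THRSP, which differed most between the ob/ob and fasted livers, for SLC25A1, which differed least among the 9 genes that rose in the ob/ob vector livers, and for PGD and G6PDX, 2 enzymes of 1 pathway that moved apart in the fasted livers. Capitals mark CCAAT and its reverse complement ATTGG, which overlap once in FASN.
FASN, chr11:120824548-120824677, minus strand: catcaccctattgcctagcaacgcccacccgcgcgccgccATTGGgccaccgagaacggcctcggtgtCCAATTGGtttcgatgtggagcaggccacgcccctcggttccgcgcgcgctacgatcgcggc
THRSP, chr7:97417551-97417680, minus strand: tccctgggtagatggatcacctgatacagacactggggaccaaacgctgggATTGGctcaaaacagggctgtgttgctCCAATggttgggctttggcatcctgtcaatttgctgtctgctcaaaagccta
SLC25A1, chr16:17928220-17928349, minus strand: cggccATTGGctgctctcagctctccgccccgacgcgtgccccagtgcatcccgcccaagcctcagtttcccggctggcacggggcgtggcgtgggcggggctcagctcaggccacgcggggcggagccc
PGD, chr4:149166706-149166835, minus strand: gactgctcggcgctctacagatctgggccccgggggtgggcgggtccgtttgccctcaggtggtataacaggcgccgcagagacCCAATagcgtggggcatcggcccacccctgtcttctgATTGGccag
G6PDX, chrX:74428881-74429010, minus strand: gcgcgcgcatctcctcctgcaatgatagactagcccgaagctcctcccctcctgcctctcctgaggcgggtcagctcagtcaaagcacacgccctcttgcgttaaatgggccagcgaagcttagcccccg
FASN held 3 matches in these bases, THRSP and PGD 2 each, SLC25A1 1 and G6PDX 0. A match is a run of letters, and binding was not measured.

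FH livers had higher levels of most of these genes than vector livers in both models. In ob/ob livers all 10 were called higher with FH (edgeR adjusted p under 0.05), against 25.8% of the 15228 genes tested that were called higher and 27.9% called lower. In fasted livers 8 of the 10 were called higher and 1, G6PDX, lower, against 27.4% of all genes higher and 27.6% lower. The median log2 fold change over the 10 genes was 1.76 in ob/ob livers, against -0.01 over all genes, and 1.26 in fasted livers, against -0.04 over all genes. Together the 10 genes took 0.548% to 0.654% of all counts in ob/ob FH and 0.155% to 0.291% in ob/ob vector libraries, and 0.0587% to 0.0673% in fasted FH and 0.0399% to 0.0442% in fasted vector libraries. The size of the FH effect depended on how libraries were scaled. The values given are on TMM scaling, which sets the bulk of genes near 0. On plain library totals the median of all genes fell by 0.63 in ob/ob and by 0.71 in fasted livers, 9 of the 10 genes were called higher in ob/ob livers (SLC25A1 was lost), and 4 were called higher in fasted livers (SLC25A1, ACLY, ACSS2 and FASN). All genes stood then at 6.83% called higher and 53.3% lower in ob/ob livers, and at 7.16% higher and 55.7% lower in fasted livers. Scaled to the 8 hepatocyte markers, 6 of the 10 were called higher in ob/ob livers (ACLY, ACSS2, ACACA, FASN, PGD and THRSP) and 1, FASN, in fasted livers, against 2.73% of all genes higher and 62.4% lower in ob/ob and 2.63% higher and 64.5% lower in fasted livers. G6PDX was called lower in fasted livers under all 3 scalings. The hepatocyte markers themselves were higher with FH on TMM scaling, 7 of 8 in each model, with summed levels of 132027 to 160941 CPM in ob/ob FH and 44732 to 55968 CPM in ob/ob vector libraries. Most of each sum was ALB, which averaged 121652 CPM in ob/ob FH and 38683 CPM in ob/ob vector livers. The sums therefore mainly follow that gene. In these bulk samples fewer cells of a type and less RNA per cell cannot be told apart.

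**Figure D1:**
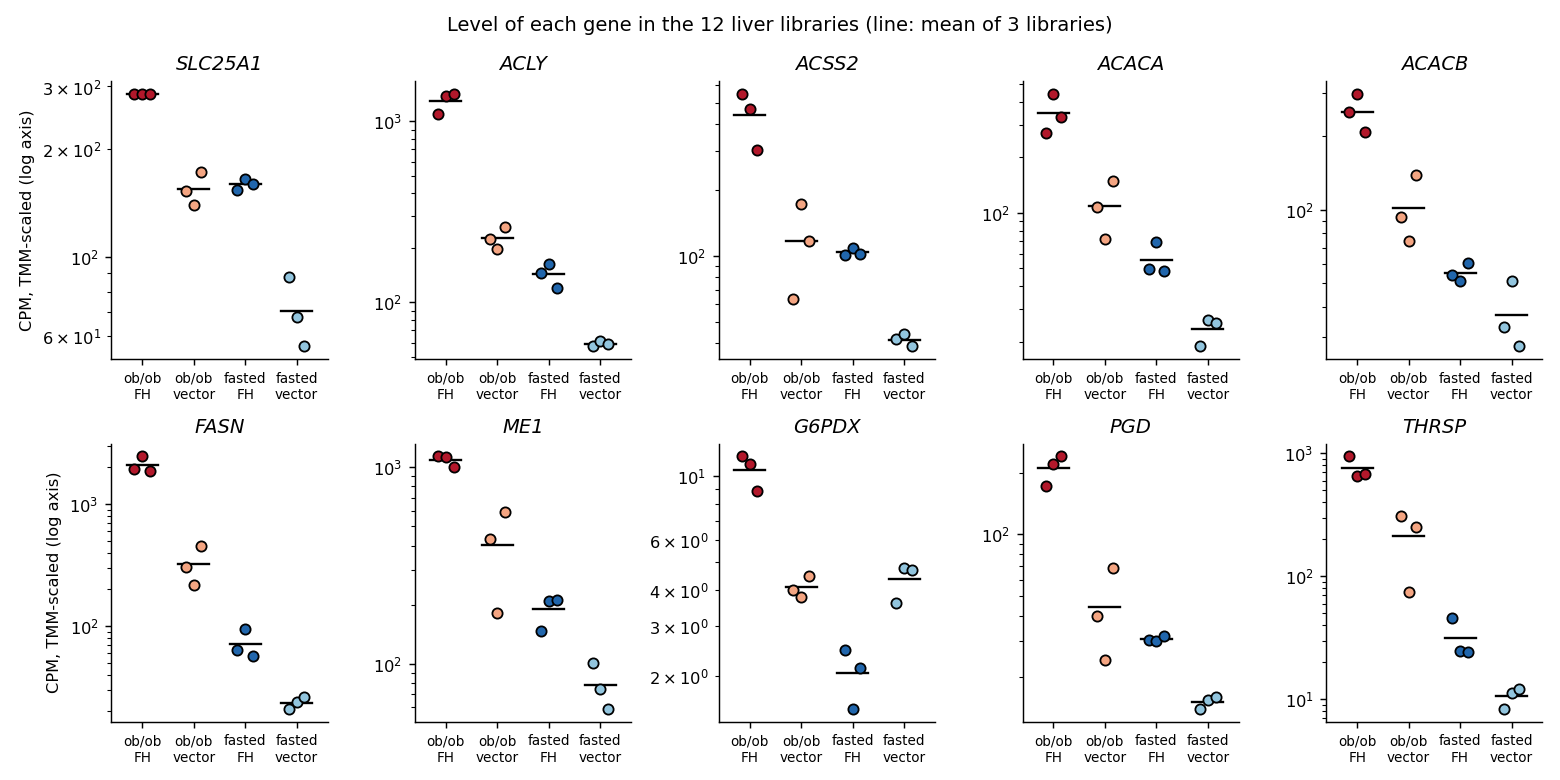
Level of each of the 10 genes in TMM-scaled CPM (log axis, own scale per panel) in the 3 libraries of each group, with the group mean as a line. For 9 genes the ob/ob FH libraries are highest and the fasted vector libraries lowest by their means, and G6PDX has its lowest mean, 2.05 CPM, in the fasted FH libraries.

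**Figure D2:**
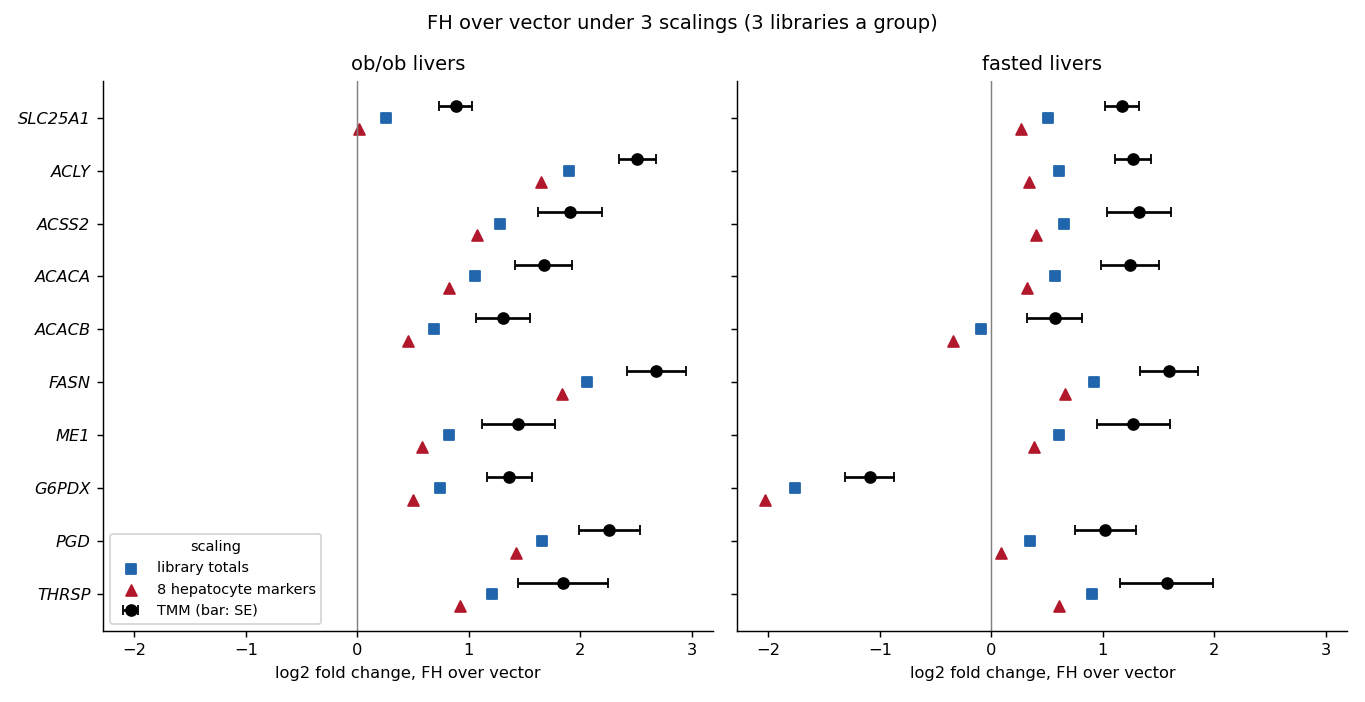
Log2 fold change of FH over vector for each gene in ob/ob livers (left) and fasted livers (right), on TMM scaling with its SE (circles), on library totals (squares) and on 8 hepatocyte markers (triangles), with 3 libraries a group. The values move left by a like amount for each gene when the scaling changes, and G6PDX lies on opposite sides of 0 in the 2 models under all 3 scalings.

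Among the genes of acetyl-CoA supply, ACLY had the largest FH effect in ob/ob livers and ACSS2 in fasted livers. ACLY stood at 1093, 1387 and 1422 CPM in ob/ob FH and at 225, 198 and 262 CPM in ob/ob vector libraries. In the fasted livers it stood at 146, 162 and 121 CPM with FH and at 57.1, 61.3 and 59.0 CPM with the vector. The groups did not overlap in either model. ACLY was 5.70-fold higher with FH in ob/ob livers (log2 2.51, SE 0.17, edgeR adjusted p = 5.54e-07) and 2.42-fold higher in fasted livers (log2 1.27, SE 0.16, edgeR adjusted p = 2.92e-05).

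ACSS2, the cytosolic and nuclear acetyl-CoA synthetase, stood at 550, 470 and 304 CPM in ob/ob FH and at 63.6, 172 and 117 CPM in ob/ob vector libraries. The fasted FH libraries held 101, 109 and 102 CPM, against 41.7, 44.0 and 38.6 CPM in the fasted vector libraries. The FH libraries were higher in both models, with a wide spread in ob/ob and a narrow one in fasted livers. The rise was 3.76-fold in ob/ob (log2 1.91, SE 0.29, edgeR adjusted p = 0.000107) and 2.50-fold in fasted livers (log2 1.32, SE 0.29, edgeR adjusted p = 0.00154). ACSS2 overlaps GSS on the opposite strand, whose level was 46.8 to 74.5 CPM in the ob/ob vector and 28.4 to 39.1 CPM in the fasted vector libraries. Whether the counting used strand is not stated, so reads of the 2 genes may not be separated.

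SLC25A1, the mitochondrial citrate carrier, stood at 286, 285 and 286 CPM in ob/ob FH and at 153, 140 and 172 CPM in ob/ob vector libraries. Fasted livers with FH had 154, 165 and 160 CPM, and fasted livers with the vector had 88.1, 68.0 and 56.2 CPM. The 3 ob/ob FH libraries were nearly equal, and FH and vector libraries did not overlap in either model. SLC25A1 was 1.84-fold higher with FH in ob/ob livers (log2 0.88, SE 0.15, edgeR adjusted p = 0.000296) and 2.26-fold higher in fasted livers (log2 1.18, SE 0.15, edgeR adjusted p = 3.49e-05). On library totals its log2 fold change was 0.26 in ob/ob livers (edgeR adjusted p = 0.122), so that call rests on the scaling.

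Of the carboxylases, ACACA passed the test in both models and ACACB in ob/ob livers. ACACA, which makes the cytosolic malonyl-CoA that FASN uses, stood at 270, 444 and 332 CPM in ob/ob FH and at 107, 71.8 and 150 CPM in ob/ob vector libraries. In the fasted livers it stood at 49.4, 69.9 and 48.4 CPM with FH and at 18.9, 26.4 and 25.4 CPM with the vector. FH libraries were above vector libraries in each model. The rise was 3.19-fold in ob/ob (log2 1.67, SE 0.26, edgeR adjusted p = 0.000134) and 2.37-fold in fasted livers (log2 1.25, SE 0.26, edgeR adjusted p = 0.00128), the second of which was lost on library totals (log2 0.57, edgeR adjusted p = 0.0767).

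ACACB is the carboxylase at the mitochondrial surface, and its malonyl-CoA is known to inhibit the fatty acid importer CPT1A. It stood at 250, 299 and 208 CPM in ob/ob FH and at 92.9, 74.7 and 139 CPM in ob/ob vector libraries. The fasted FH libraries held 53.9, 50.9 and 60.5 CPM, against 33.1, 50.9 and 27.6 CPM in the fasted vector libraries. Vector replicate 2 touched the lowest FH library there. ACACB was 2.47-fold higher with FH in ob/ob livers (log2 1.31, SE 0.24, edgeR adjusted p = 0.000565). In fasted livers it was the 1 gene of the 10 that missed the threshold (log2 0.57, SE 0.24, edgeR adjusted p = 0.0633). Without fasted vector replicate 2 the log2 fold change was 0.88 (edgeR adjusted p = 0.00938), and on library totals it was -0.09.

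FASN showed the largest FH effect of the 10 genes in ob/ob livers, with 1930, 2465 and 1855 CPM in ob/ob FH and 303, 219 and 452 CPM in ob/ob vector libraries. Fasted livers with FH had 63.4, 94.3 and 56.5 CPM, and fasted livers with the vector had 20.9, 23.9 and 26.2 CPM. Every FH library lay above every vector library of its model. The rise was 6.42-fold in ob/ob livers (log2 2.68, SE 0.26, edgeR adjusted p = 4.64e-06) and 3.02-fold in fasted livers (log2 1.59, SE 0.26, edgeR adjusted p = 0.000196). FASN was the 1 gene called higher in both models under all 3 scalings.

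THRSP, also called Spot 14, is a protein of lipogenic tissues that responds to thyroid hormone and carbohydrate. It stood at 946, 652 and 683 CPM in ob/ob FH and at 309, 74.5 and 253 CPM in ob/ob vector libraries. In the fasted livers it stood at 45.4, 24.8 and 24.0 CPM with FH and at 8.29, 11.3 and 12 CPM with the vector. The groups did not overlap, though ob/ob vector replicate 2 lay far below its group. THRSP was 3.59-fold higher with FH in ob/ob livers (log2 1.84, SE 0.40, edgeR adjusted p = 0.00174) and 2.97-fold higher in fasted livers (log2 1.57, SE 0.42, edgeR adjusted p = 0.00607). Without ob/ob vector replicate 2 the ob/ob value was 1.45.

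Of the NADPH-making enzymes, ME1, the cytosolic malic enzyme, stood at 1138, 1124 and 1008 CPM in ob/ob FH and at 431, 180 and 589 CPM in ob/ob vector libraries. The fasted FH libraries held 147, 210 and 210 CPM, against 101, 74.7 and 58.7 CPM in the fasted vector libraries. Replicate 2 was again the low library of the ob/ob vector group. The rise was 2.72-fold in ob/ob (log2 1.45, SE 0.33, edgeR adjusted p = 0.0023) and 2.42-fold in fasted livers (log2 1.28, SE 0.33, edgeR adjusted p = 0.00502), and in fasted livers it was lost on library totals (log2 0.61, edgeR adjusted p = 0.107).

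PGD, the 6-phosphogluconate dehydrogenase, stood at 172, 222 and 240 CPM in ob/ob FH and at 39.9, 24.3 and 68.0 CPM in ob/ob vector libraries. Fasted livers with FH had 30.5, 30.2 and 31.6 CPM, and fasted livers with the vector had 14.0, 15.5 and 15.9 CPM. The fasted libraries of each group lay close together, and every FH library lay above every vector library of its model. PGD was 4.80-fold higher with FH in ob/ob livers (log2 2.26, SE 0.27, edgeR adjusted p = 1.94e-05) and 2.03-fold higher in fasted livers (log2 1.02, SE 0.27, edgeR adjusted p = 0.00615). The fasted value was 0.35 on library totals (edgeR adjusted p = 0.287).

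G6PDX, the glucose-6-phosphate dehydrogenase that feeds PGD, moved in opposite directions in the 2 models. It stood at 11.7, 11 and 8.91 CPM (190 to 227 counts) in ob/ob FH and at 4.0, 3.78 and 4.50 CPM (69 to 86 counts) in ob/ob vector libraries. In the fasted livers it stood at 2.47, 1.54 and 2.14 CPM (23 to 40 counts) with FH and at 3.62, 4.78 and 4.71 CPM (51 to 80 counts) with the vector. The fasted FH libraries were the lowest of the 12 and the ob/ob FH libraries the highest, with no overlap between FH and vector in either model. G6PDX was 2.58-fold higher with FH in ob/ob livers (log2 1.36, SE 0.20, edgeR adjusted p = 9.27e-05) and 2.13-fold lower in fasted livers (log2 -1.09, SE 0.22, edgeR adjusted p = 0.00100). On library totals these values were 0.74 (edgeR adjusted p = 0.00637) and -1.76 (edgeR adjusted p = 2.38e-05), and on hepatocyte markers 0.50 (edgeR adjusted p = 0.0701) and -2.03. G6PD2, its near-identical retrocopy, had 0 counts in all 12 libraries. IKBKG, which overlaps G6PDX on the opposite strand, was lower with FH in both models (log2 -0.69, SE 0.12, in ob/ob and -0.56, SE 0.12, in fasted livers, edgeR adjusted p = 0.00028 and 0.00124).

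Several markers of other liver cells moved in the same directions as G6PDX. Their counts are to be read against the shares of all genes. On TMM scaling 25.8% of all genes were called higher with FH and 27.9% lower in ob/ob livers, and 27.4% and 27.6% in fasted livers. On library totals these shares were 6.83% and 53.3% in ob/ob and 7.16% and 55.7% in fasted livers. Of 7 Kupffer cell markers, 5 were called higher with FH in ob/ob livers and 5 lower in fasted livers. On library totals 2 were higher and 1 lower in ob/ob livers and 6 lower in fasted livers, so the ob/ob direction of this list depends on the scaling. Their summed level was 536 to 749 CPM in ob/ob FH and 274 to 442 CPM in ob/ob vector libraries, and 186 to 219 CPM in fasted FH and 402 to 541 CPM in fasted vector libraries. CLEC4F, a C-type lectin of Kupffer cells, changed by 0.95 (SE 0.21) in ob/ob and by -1.23 (SE 0.22) in fasted livers on the log2 scale, and its ob/ob call was lost on library totals (0.34). Of 7 endothelial markers, 3 were called higher and 1 lower with FH in ob/ob livers, and all 7 lower in fasted livers. On library totals 1 was higher and 4 lower in ob/ob livers, so its ob/ob direction does too. Their summed level was 252 to 295 CPM in ob/ob FH and 203 to 263 CPM in ob/ob vector libraries, and 119 to 139 CPM in fasted FH and 296 to 358 CPM in fasted vector libraries. PECAM1, an adhesion protein of endothelium, changed by 1.29 (SE 0.14) in ob/ob and by -0.71 (SE 0.14) in fasted livers. It was the 1 endothelial marker called higher in ob/ob livers on library totals (0.68). The 4 called lower there were STAB1 (-1.13), CLEC4G (-0.67), STAB2 (-0.51) and FCGR2B (-0.43). Of 6 stellate cell markers, 3 were called higher with FH in ob/ob livers and 2 lower in fasted livers, while on library totals 1 was higher and 1 lower in ob/ob and 5 lower in fasted livers. The 5 cholangiocyte markers had values of 0.32 to 0.87 in ob/ob and -0.55 to 0.69 in fasted livers, and the 5 lymphocyte markers -0.98 to 1.58 and -0.97 to -0.49. All of these markers were detected in every group, and their part in the G6PDX result was not tested. ME2, the mitochondrial malic enzyme, was lower with FH in fasted livers (log2 -1.19, SE 0.24, edgeR adjusted p = 0.00107) and did not pass in ob/ob livers (0.52, SE 0.23, edgeR adjusted p = 0.0662), where its value was -0.094 on library totals. Counts of ME2 were low, 19 to 30 in fasted FH and 53 to 59 in fasted vector libraries.

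**Figure D3:**
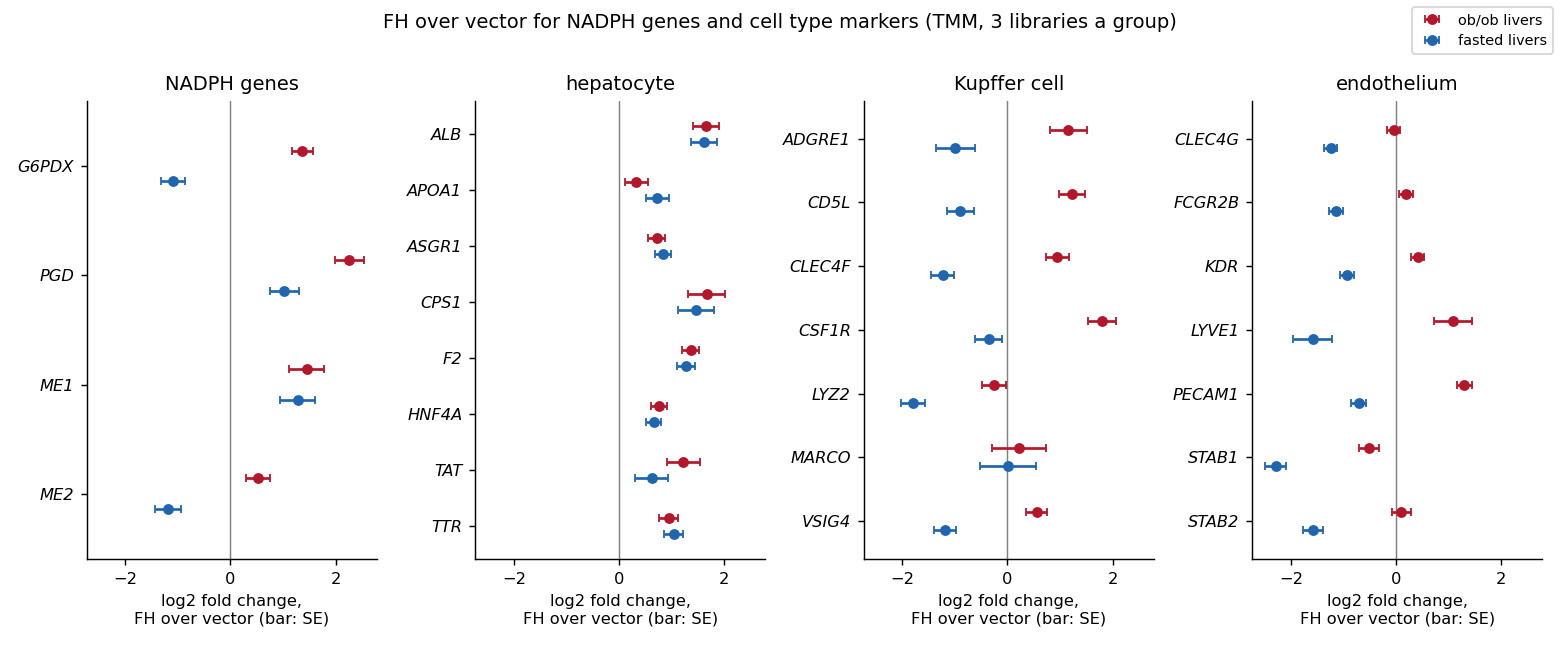
Log2 fold change of FH over vector with its SE (TMM, 3 libraries a group) in ob/ob livers (upper point of each gene) and fasted livers (lower point) for G6PDX, PGD, ME1 and ME2 and for markers of hepatocytes, Kupffer cells and endothelium. G6PDX lies at 1.36 in ob/ob and -1.09 in fasted livers, CLEC4F at 0.95 and -1.23 and PECAM1 at 1.29 and -0.71, while PGD and ME1 lie above 0 in both. The endothelial marker STAB1 and the Kupffer cell marker LYZ2 lie below 0 in both.

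The difference between the FH effects of the 2 models was tested in the same fit. ACLY and G6PDX were the 2 of the 10 genes whose FH effect was called larger in ob/ob than in fasted livers, against 4.77% of all genes called higher and 3.65% called lower. The effects of G6PDX differed by 2.46 (SE 0.30, edgeR adjusted p = 0.0011) and those of ACLY by 1.24 (SE 0.22, edgeR adjusted p = 0.0064) on the log2 scale. PGD (1.24, SE 0.38, edgeR adjusted p = 0.0584) and FASN (1.09, SE 0.36, edgeR adjusted p = 0.0755) missed the threshold. DESeq2 called 4 of the 10, with FASN at 1.12 (DESeq2 adjusted p = 0.0185) and PGD at 1.27 (DESeq2 adjusted p = 0.0139). Without ob/ob vector replicate 2 edgeR called 3, the added gene being PGD (0.94, edgeR adjusted p = 0.0306), and without ob/ob vector replicate 3 it called 4, adding FASN (1.40, edgeR adjusted p = 0.0178) and PGD (1.70, edgeR adjusted p = 0.00341). The remaining 6 genes had differences from -0.29 (SLC25A1) to 0.74 (ACACB) and SEs of 0.21 to 0.57, and they missed the threshold. ACLY and G6PDX were called under all 3 scalings. FH1 itself differed by 1.13 (SE 0.28, edgeR adjusted p = 0.0267), a call that was lost when any 1 of 5 libraries was left out, and the ob/ob FH livers alone carried XIST.

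The models also differed from each other without FH. Between ob/ob vector and fasted vector livers 9 of the 10 genes were called higher in ob/ob, against 9.36% of all genes higher and 8.18% lower. THRSP was 20.1-fold higher (log2 4.33, SE 0.46, edgeR adjusted p = 5.86e-05) and FASN 13.7-fold higher (log2 3.78, SE 0.28, edgeR adjusted p = 5.74e-06). ME1 was 5.13-fold, ACACA 4.65-fold, ACLY 3.85-fold, PGD 2.91-fold, ACSS2 2.83-fold, ACACB 2.74-fold and SLC25A1 2.19-fold higher. G6PDX was the exception, at 4.09 ± 0.367 CPM in ob/ob vector and 4.37 ± 0.655 CPM in fasted vector livers (SD, n = 3; log2 -0.10, SE 0.21, edgeR adjusted p = 0.804), and these groups overlapped. The same 9 genes were called without ob/ob vector replicate 2 and under both other scalings.

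Between ob/ob FH and fasted FH livers all 10 were called higher in ob/ob, against 18.6% of all genes higher and 21.6% lower. The 3 ob/ob FH libraries carried XIST and the 3 fasted FH libraries the Y-linked genes, so sex markers and model cannot be told apart in these folds. FASN was 29.2-fold (log2 4.87, SE 0.29, edgeR adjusted p = 3.32e-07), THRSP 24.2-fold (log2 4.60, SE 0.46, edgeR adjusted p = 1.40e-05) and ACLY 9.10-fold higher (log2 3.19, SE 0.17, edgeR adjusted p = 1.15e-07). PGD was 6.87-fold, ACACA 6.24-fold, ME1 5.77-fold, G6PDX 5.13-fold, ACACB 4.58-fold, ACSS2 4.26-fold and SLC25A1 1.79-fold higher. The fasted FH libraries and the ob/ob vector libraries, which differ in both factors, overlapped in the levels of SLC25A1, ACSS2, ME1 and PGD. Markers of adipocytes were measured beside these genes. ADIPOQ, PLIN1, LEP and RETN stayed at or below 2.42 CPM in all 12 libraries. CFD, the adipocyte protease adipsin, was at 0.780 to 3.16 CPM in ob/ob FH, 2.49 to 5.30 CPM in ob/ob vector and at most 0.993 CPM in the fasted libraries, and CIDEA, a lipid droplet protein, was at 23.7 to 39.9 CPM in ob/ob FH, 32.8, 0.158 and 60.6 CPM in ob/ob vector and at most 0.141 CPM in the fasted libraries.

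**Figure D4:**
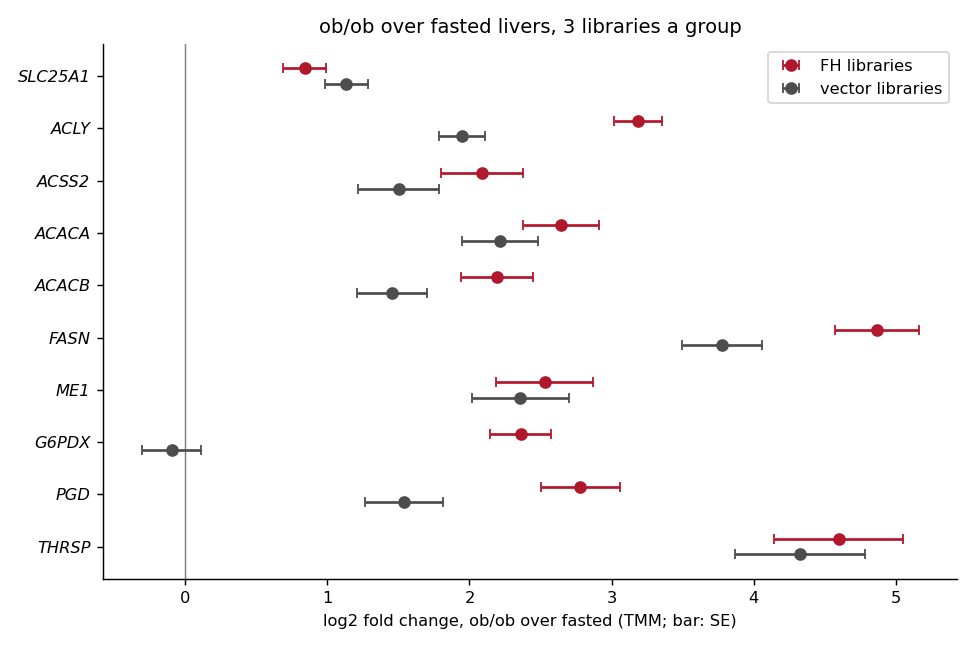
Log2 fold change of ob/ob over fasted livers with its SE (TMM, 3 libraries a group) for each gene, in FH libraries (upper point) and vector libraries (lower point). THRSP and FASN lie farthest right, SLC25A1 lies near 1 in both, and G6PDX lies at -0.10 in vector and 2.36 in FH libraries.

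Ratios of 2 genes within a library do not depend on the scaling between libraries, and their differences between groups were compared for 3 pairs in 4 comparisons. With 3 libraries against 3 the exact two-sided permutation test cannot go below 0.1, and no adjusted p over the 12 tests was below 0.3. The log2 ratio of ME1 to G6PDX counts averaged 6.69 ± 0.11 in ob/ob FH, 6.44 ± 0.77 in ob/ob vector, 6.51 ± 0.60 in fasted FH and 4.12 ± 0.60 in fasted vector livers (SD, n = 3). It was 2.39 higher with FH in the fasted livers and 2.32 higher in ob/ob vector than in fasted vector livers, both without overlap (exact p = 0.1 each). The ratio of ACACB to ACACA averaged -0.45 ± 0.30 in ob/ob FH, -0.09 ± 0.13 in ob/ob vector, 0.00 ± 0.41 in fasted FH and 0.63 ± 0.44 in fasted vector livers. It was lower by 0.71 in ob/ob vector than in fasted vector livers without overlap (exact p = 0.1). In the FH comparisons the libraries overlapped. The ratio of ACSS2 to ACLY averaged -1.59 ± 0.62 in ob/ob FH, -1.06 ± 0.81 in ob/ob vector, -0.45 ± 0.18 in fasted FH and -0.52 ± 0.08 in fasted vector livers. It was lower by 1.14 in ob/ob FH than in fasted FH livers without overlap (exact p = 0.1), and ob/ob vector replicate 2 was the high library of its group at -0.20.

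**Figure D5:**
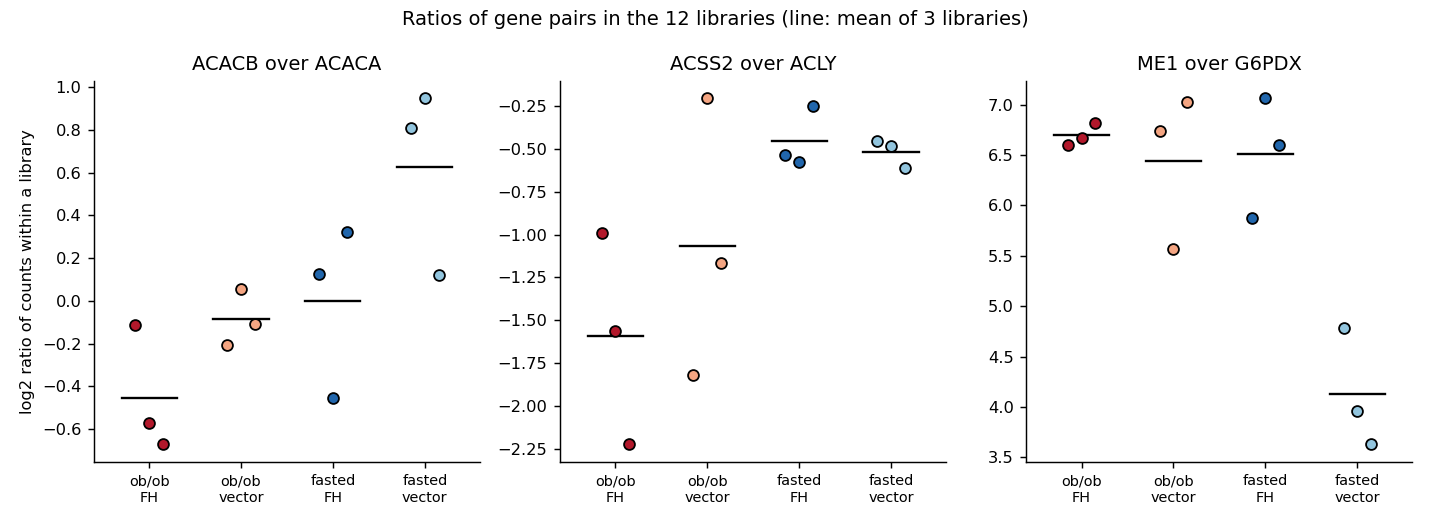
Log2 ratio of counts within each library for ACACB over ACACA, ACSS2 over ACLY and ME1 over G6PDX, by group, with the mean of 3 libraries as a line. The ratio of ME1 to G6PDX is lowest in the 3 fasted vector libraries, at 3.63 to 4.79.

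The other genes of the pathway are given by counts, each to be read against the shares of all genes called under the same scaling, given above for the 10 genes. Of 6 tested genes of the pentose phosphate pathway, 4 were called higher and 1 lower with FH in both models. On library totals 3 were higher and 1 lower in ob/ob and 2 higher and 2 lower in fasted livers, and on hepatocyte markers 1 higher and 2 lower in both. TKT, the transketolase of its non-oxidative arm, rose with FH by 1.61 (SE 0.24, edgeR adjusted p = 0.000104) in ob/ob and by 1.84 (SE 0.25, edgeR adjusted p = 4.72e-05) in fasted livers. H6PD, which makes NADPH inside the endoplasmic reticulum, rose by 0.98 and 1.26. RPE, the ribulose-phosphate epimerase, fell by 0.93 in ob/ob and by 0.61 in fasted livers. In ob/ob against fasted vector livers 3 were called higher, TKT (1.92), TALDO1 (1.03) and RPIA (1.07).

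Of 10 tested genes of other NADPH sources and NAD kinases, 5 were called higher and 3 lower with FH in ob/ob livers (2 and 3 on library totals, 2 and 3 on hepatocyte markers), and 5 higher and 2 lower in fasted livers (4 and 3, 1 and 5). MTHFD1 and ALDH1L1, folate enzymes of the cytosol, rose by 1.59 and 2.05 in ob/ob and by 1.44 and 1.51 in fasted livers. IDH1, the cytosolic isocitrate dehydrogenase, rose by 0.87 in ob/ob and 1.09 in fasted livers, though the ob/ob call was lost on library totals (0.25) and the value was -0.00066 on hepatocyte markers. It was the 1 gene of the list called higher in ob/ob against fasted vector livers (0.94, SE 0.15, edgeR adjusted p = 0.00101). NNT, the mitochondrial transhydrogenase, fell with FH in ob/ob livers (log2 -1.54, SE 0.47, edgeR adjusted p = 0.0141) and did not pass in fasted livers (-0.16, SE 0.44). Its counts were few, 7 to 15 in ob/ob FH and 18 to 49 in ob/ob vector libraries.

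Of 13 genes of citrate and acetate supply, 8 were called higher and 1 lower with FH in ob/ob livers (5 and 3 on library totals, 4 and 4 on hepatocyte markers), and 9 higher in fasted livers (5 higher and 3 lower, 3 and 4). ACO1, the cytosolic aconitase, rose by 1.34 in ob/ob and 1.56 in fasted livers, and CS, citrate synthase, by 1.40 and 0.91, of which the fasted call was lost on library totals (0.24) and the value turned to -0.012 on hepatocyte markers. ACOT12, a cytosolic acetyl-CoA hydrolase, fell by 0.38 in ob/ob (SE 0.13, edgeR adjusted p = 0.0224) and rose by 0.56 in fasted livers (SE 0.13, edgeR adjusted p = 0.00225), where the value turned to -0.10 on library totals and -0.36 on hepatocyte markers. Of 7 genes around malonyl-CoA and mitochondrial fatty acid synthesis, 3 were called higher with FH in each model, while on library totals 1 was higher in each, with 3 lower in ob/ob and 4 lower in fasted livers, and on hepatocyte markers 4 were lower in ob/ob and 5 in fasted livers. MLYCD, which breaks malonyl-CoA down, had log2 fold changes of 0.48 in ob/ob and 0.55 in fasted livers on TMM scaling, but -0.14 and -0.12 on library totals and -0.39 and -0.38 on hepatocyte markers. It was lower in ob/ob than in fasted vector livers (log2 -0.43, SE 0.13, edgeR adjusted p = 0.0357).

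Of 18 genes that control lipogenesis, 8 were called higher and 2 lower with FH in ob/ob livers, but 1 and 7 on library totals and 1 and 12 on hepatocyte markers, scalings under which 53.3% and 62.4% of all genes were called lower. In fasted livers 8 were higher and 3 lower, but 1 and 10 on library totals, and 10 were lower on hepatocyte markers. The list mixes activators of lipogenesis, such as SREBF1, with inhibitors, such as INSIG1 and INSIG2. These counts therefore give no net direction of control. SREBF1 stood at 215, 220 and 238 CPM in ob/ob FH and 154, 78.9 and 102 CPM in ob/ob vector libraries, and at 17, 22.3 and 14.2 CPM in fasted FH and 8.37, 10.05 and 11.1 CPM in fasted vector libraries. Its FH effect was 1.01 (SE 0.22, edgeR adjusted p = 0.00151) in ob/ob and 0.86 (SE 0.23, edgeR adjusted p = 0.00659) in fasted livers, and it was lost in both on library totals (0.38 and 0.18). Against the fasted livers SREBF1 was 12.6-fold higher in ob/ob FH and 11.3-fold higher in ob/ob vector livers. MLXIPL went the other way, with 77.9, 78.1 and 81.8 CPM in ob/ob FH and 236, 458 and 238 CPM in ob/ob vector libraries, and 37.8, 55.2 and 47.2 CPM in fasted FH and 214, 162 and 284 CPM in fasted vector libraries. It was 3.92-fold lower with FH in ob/ob (log2 -1.97, SE 0.26, edgeR adjusted p = 4.27e-05) and 4.71-fold lower in fasted livers (log2 -2.24, SE 0.27, edgeR adjusted p = 1.85e-05). MID1IP1, the paralogue of THRSP that is known to activate acetyl-CoA carboxylase, rose with FH by 1.64 in ob/ob and 1.42 in fasted livers and was higher in ob/ob than in fasted livers by 2.58 with FH and 2.36 with the vector.

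A list of 11 genes that use palmitate or other long-chain fatty acids included FADS1, FADS2 and ELOVL5. Of the 11, 9 were called higher with FH in ob/ob livers (6 on library totals, 3 higher and 1 lower on hepatocyte markers). In fasted livers 7 were called higher (5 on library totals, 3 higher and 1 lower on hepatocyte markers). SCD1, the desaturase of long-chain acyl-CoA, averaged 34549 ± 10431 CPM in ob/ob FH and 9603 ± 4108 CPM in ob/ob vector livers, and 1300 ± 305 CPM in fasted FH and 1035 ± 123 CPM in fasted vector livers (SD, n = 3). It rose with FH in ob/ob livers (log2 1.85, SE 0.33, edgeR adjusted p = 0.000377) and did not pass in fasted livers (0.33, SE 0.32, edgeR adjusted p = 0.394). CPT1A, which admits fatty acids to mitochondria for oxidation, averaged 614 ± 55.1 CPM in ob/ob FH and 349 ± 147 CPM in ob/ob vector livers, and 1544 ± 148 CPM in fasted FH and 535 ± 124 CPM in fasted vector livers. It rose with FH by 0.81 (SE 0.27, edgeR adjusted p = 0.0226) in ob/ob and by 1.53 (SE 0.28, edgeR adjusted p = 0.00045) in fasted livers, and the ob/ob call was lost on library totals (0.20), in the fit of the 2 groups alone (0.75, edgeR adjusted p = 0.0754), without ob/ob FH replicate 2 (0.79, edgeR adjusted p = 0.0582) and without ob/ob FH replicate 3 (0.75, edgeR adjusted p = 0.0679). The fasted call was lost on hepatocyte markers (0.61, edgeR adjusted p = 0.0638).

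Genes whose pattern over the 12 libraries was most like that of FASN were ranked by the root mean square difference of centred log2 CPM, among genes averaging at least 1 CPM. The 5 nearest were FDPS (0.57), PKLR (0.58), SCD1 (0.61), GSTM3 (0.62) and AQP8 (0.69). PKLR, the liver pyruvate kinase, averaged 639 CPM in ob/ob FH, 193 CPM in ob/ob vector, 56.0 CPM in fasted FH and 16.7 CPM in fasted vector livers. FDPS, an enzyme of sterol synthesis, averaged 531, 184, 28.7 and 10.2 CPM in the same groups. The 6 nearest to ACACB were H2-EB1 (0.26), LRATD2 (0.29), PYGB (0.29), COL1A2 (0.30), GAS6 (0.32) and ELOVL6 (0.32). H2-EB1, a class II antigen presentation gene, averaged 72.6 CPM in ob/ob FH, 22.8 CPM in ob/ob vector, 12.6 CPM in fasted FH and 12.2 CPM in fasted vector livers. On library totals the 5 genes nearest to FASN and the 6 nearest to ACACB were the same.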

How the data were processed

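Counts per gene of 12 mouse liver libraries were used as deposited. The authors mapped the reads to GRCm39 using STAR 2.7.11a, per the submitters' processing notes, and used a stranded Illumina mRNA kit, per the labels' protocols. How reads were counted (tool, annotation, strand) is not stated. Groups and replicate numbers came from the labels.

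Of 56441 genes, 15228 passed edgeR's filterByExpr (10 counts, 15 in total), all 10 members among them. The fit was made in R 4.3.3 with the quasi-likelihood test of edgeR 4.0.16 on TMM-scaled libraries, with all 12 libraries in 1 model of 4 groups and 8 residual degrees of freedom. P-values were adjusted by Benjamini-Hochberg over all genes tested, and a gene was called under 0.05. SEs are of log2 fold changes (the fold change over the square root of its F statistic), CPM is TMM-scaled, and ± gives the SD of 3 libraries. Ratios were log2 ratios of counts with 0.5 added, compared by exact permutation. FH effects share the model's libraries: each vector or FH group enters 2 comparisons. Intervals and limits from counts cover counting error only. Replicates of a group differed by more than sampling noise (chi-square per degree of freedom 22.0 to 119), so all were kept.

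Alternatives were scaling to library totals, DESeq2 size factors, no filter on low counts, DESeq2 1.42.0, a fit of the 2 groups compared, the replicate number as a block, leaving out each library, and 5 added to counts in ratios. Scaling to 8 hepatocyte markers was added after seeing the data. Only the edgeR fit was tested on simulated counts, for the fasted FH comparison, with few changed genes and the same dispersion for every gene. Such data cannot probe how the FH results depend on scaling. Overlapping genes came from GENCODE M21 by symbol, and promoter sequences from RefSeq (GRCm38.p6) with matches for all 10 genes.

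The members, lists and tests were chosen with earlier results of these data known. Named genes are the 10 members, FH1, SREBF1, MLXIPL, SCD1 and CPT1A, whatever their p, up to 3 called genes of smallest adjusted p per list and direction, and the 6 genes most like FASN and ACACB, 1 of which is not reported here. XIST, Y-linked genes and MALAT1 checked the libraries. ALB, DBP, HSD3B5, IKBKG, GSS, ADIPOQ, PLIN1, LEP, RETN, CFD and CIDEA were named after their values were seen.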

Additional observations from a re-analysis of the deposited data

Results flagged for a closer look

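The FH effect, FH over vector, differed between ob/ob and fasted livers for 8 genes among the members, the pathway lists and FH1. The criterion was an edgeR adjusted p under 0.05 for the difference itself, in log2 units, ob/ob minus fasted. Cell-type markers and genes named only for their likeness to FASN or ACACB were outside this count. Of the latter, COL1A2 (1.49, adjusted p = 0.00201) and H2-EB1 (1.63, adjusted p = 0.0239) also passed, and the others named missed the threshold. G6PDX differed by 2.46 (adjusted p = 0.0011), with a rise in ob/ob and a fall in fasted livers. ACLY differed by 1.24 (adjusted p = 0.0064), with a rise in both. Among the other genes, SCD2 differed by 2.81 (adjusted p = 0.00876) and by 2.06 (adjusted p = 0.00556) without ob/ob FH replicate 2, which stood at 75.4 CPM against 25.2 and 24.2 CPM in the other two. Further, ME2 differed by 1.71 (adjusted p = 0.00862), INSIG2 by 1.50 (adjusted p = 0.0223; 1.38, adjusted p = 0.0642, without fasted FH replicate 2 and 1.53, adjusted p = 0.0523, without ob/ob FH replicate 2), PRKAA2 by -0.97 (adjusted p = 0.0127) and ACOT12 by -0.95 (adjusted p = 0.00821). FH1 differed by 1.13 (adjusted p = 0.0267), and 5 libraries each ended its call when omitted: 0.91 (adjusted p = 0.0565) without fasted vector replicate 2, 1.05 (adjusted p = 0.0723) without fasted FH replicate 2, 1.11 (adjusted p = 0.0558) without fasted FH replicate 3, 1.19 (adjusted p = 0.0507) without ob/ob FH replicate 2 and 1.04 (adjusted p = 0.0696) without ob/ob FH replicate 3. The ob/ob FH libraries alone carried XIST and lacked Y-linked counts, so sex markers and FH cannot be told apart in these differences.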

How the results depend on the processing

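Scaling moved the FH comparisons most. On library totals 1040 genes were called higher and 8109 lower with FH in ob/ob livers and 1090 and 8488 in fasted livers, and on hepatocyte markers 416 and 9498, and 400 and 9815. Members called higher then numbered 9 and 4 on library totals and 6 and 1 on hepatocyte markers. In fasted livers the log2 value of ACACB turned to -0.094 and -0.34, that of SCD1 to -0.34 and -0.61, and that of SREBF1 on hepatocyte markers to -0.079. CPT1A turned to -0.067 on hepatocyte markers in ob/ob livers. For ob/ob against fasted vector livers library totals gave 2729 genes higher and 641 lower and hepatocyte markers 7408 and 259, with G6PDX at 0.11 and 0.50 and CPT1A at 0.024. The fit of these 2 groups alone gave 698 and 546. For ob/ob against fasted FH livers library totals gave 4035 higher and 1477 lower and hepatocyte markers 7284 and 444, with FH1 at 0.0012 and 0.42. For the difference of FH effects, lower calls were 361 and 133 under these scalings. With no filter 1095 genes and 5 members were higher, and DESeq2 called 4 members.

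Leaving out each library in turn, the difference had 376 to 875 genes and 2 to 4 members higher, and 190 to 776 genes lower. Ob/ob against fasted vector livers had 848 to 1872 higher and 793 to 1540 lower, and ob/ob against fasted FH livers 2170 to 2705 lower. The differences of ME1 (-0.18 to 0.56), THRSP (-0.13 to 0.64) and SREBF1 (-0.045 to 0.45) changed sign without ob/ob vector replicate 2. That of ME1 also did so without fasted vector replicate 1 (-0.015). Of 700 member values under alternatives, 665 kept direction and side of the threshold.

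With 3 libraries a group, whether the replicate numbers pair libraries could not be decided. No comparison had all same-number correlations over 0.1 (-0.15 to 0.11), and correlations between different numbers ran from -0.21 to 0.20. With the number as a block, 3905 genes were higher with FH in ob/ob and 4112 in fasted livers, and PGD was called for the difference (1.29, edgeR adjusted p = 0.0425). The cause of these changes was not tested. G6PDX had the lowest counts of the members, 23 to 227 per library.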
